A study of Mus musculus with 2 samples.

Results

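Glycolysis and the hypoxia response were followed through 36 listed genes. Of these, 33 had at least 1 probe set that the platform annotation assigns to that gene alone, and 31 were measured above the signal floor on at least 1 array. The members form a list of names set with earlier results of these data known, and comprise 75 of the 45101 probe sets on the array; the whole array names 18193 genes. Gpi1 and Eno1, which encode enzymes of glycolysis, and Bnip3l had no such probe set. Ero1l is carried by the annotation under its current symbol, Ero1a. Eno2 and Pdk4 were below the floor on both arrays and are not compared.

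Glycolysis splits glucose into pyruvate in the cytosol. Pyruvate then either enters the mitochondrion through pyruvate dehydrogenase or is reduced to lactate. When oxygen is scarce, the prolyl hydroxylases encoded by Egln genes no longer mark the HIF alpha subunits for destruction, and HIF, joined to Arnt, binds hypoxia response elements and raises the transcription of most glycolytic enzymes and of genes such as Bnip3 and Ndrg1. Around implantation the mouse uterine epithelium is a site of active glucose use, and HIF subunits are present there.

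The material was uterine epithelium of C57BL/6 females collected on day 4 of pregnancy, dated from the vaginal plug after mating with fertile males. The control group was Msx1Msx2 floxed mice, and the other group was Msx1Msx2-null mice, in which PRcre, a Cre recombinase under the progesterone receptor locus, had been crossed to the floxed alleles; whether the controls carried PRcre is not given. That Cre acts wherever the receptor is expressed and is not limited to epithelium. The comparison asks what the loss of both homeobox genes changes in the receptive uterus. There was 1 array per genotype, so no difference has a replicate check, no p-value was calculated, and precision is limited by that number of arrays. One label field gives epithelial cells from 5 mice per genotype, another stromal cells from 4; whether RNA of several mice was pooled is not stated.

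All values are MAS5 signal intensities as deposited, and differences are log2 of the null signal minus log2 of the control signal. Signals under 21.1, the median of all non-control signals, were set to that floor. Each gene is represented by its brightest probe set, and a difference is called at 2-fold. As a check of the labels, the brighter Msx1 probe set read 3474 (control) and 42.3 (null), and the brighter Msx2 probe set 63.4 and 23.6; the deleted exons are not given in the labels. The 10 epithelial markers examined were bright on both arrays, with a median difference of -0.05 and summed signals of 42781 and 45130. Of 5 luminal markers 3 were measured, none past 2-fold, with a median of 0.16 and summed signals of 14841 and 15263. The 6 glandular markers were dim and uneven: 4 were measured, 2 at least 2-fold higher and 1 lower, with a median of 1.13 and summed signals of 219.55 and 305. Cxcl15 read 42.2 and 194, Foxa2 23.0 and 55.1, and Spink1 141 and, under the floor, 13.0 (at least 6.69-fold lower), while Ttr and Prss28 were under the floor on both arrays. Markers of other cell types were present as well: stroma (10 of 10 measured, none past 2-fold, median 0.59, summed signals 9371 and 11727), smooth muscle (7 of 7 measured, 6 at least 2-fold higher, median 1.38, summed signals 370 and 1133), macrophages (7 of 7, 1 at least 2-fold higher, median 0.71, 5287 and 5811) and endothelium (6 of 6, 1 higher, median 0.46, 341 and 496). Of 5 red blood cell markers 1 was measured, at 0.81. No measured marker of these lists read 0, although Myh11, Cnn1 and Actg2 were under the floor in the control. The part of these cells, glands included, in the differences below was not tested. In such a bulk sample, a change in the share of a cell type and a change in RNA per cell cannot be told apart.

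Of 13 measured glycolytic enzymes 11 read higher in the null, 3 of them past 2-fold, as did 3 of 4 measured genes of pyruvate dehydrogenase and its kinases, 1 of them past 2-fold. Of 5 measured HIF subunits and prolyl hydroxylases 4 read lower, none past 2-fold, and the probe sets of Hif1a disagreed in sign. Of the 31 measured members, 5 exceeded the control by 2-fold or more and 0 fell short of it by as much. Across all 11662 measured genes, 7.73% were that much higher and 4.75% that much lower. The 5 were Ddit4, Ldhb, Pdk1, Pfkm and Pgk1, and 20 members in all (64.5%) lay above 0 and 11 below, where 57.0% of all measured genes lay above 0. The median over members was 0.29, against 0.08 over all measured genes. Counted by probe set, 10 of the 62 measured were at least 2-fold higher and 1 lower, where the shares over all 20942 measured probe sets of 1 gene were 6.25% and 6.49%. All 10 belong to the same 5 genes, 4 of them to Ldhb, so they add no further gene.

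Only some of that count is far from the threshold. Pgk1 at 2.01-fold, Pfkm at 2.04-fold and Pdk1 at 2.12-fold stood just inside it, and Pfkp at 1.94-fold just outside. The only gauge of error is the disagreement between probe sets of one gene, whose standard deviation was 0.38 on the log2 scale over 4645 genes and 0.32 over the 14 members that allow it; it holds no spread between animals. The arrays also differed in their hybridization controls, bacterial and phage transcripts added in fixed amount: all 9 probe sets read higher on the null array, by 0.11 to 0.48, with a median of 0.29. With the arrays set to these controls, a choice made after the data were seen, 2 members were at least 2-fold higher (Ddit4 at 1.16 and Ldhb at 1.01) and 2 lower (Hif1a at -1.02 and Ndrg1 at -1.01). The median over members moved to -0.003 and that over all genes to -0.20, and the shares over all genes became 4.89% higher and 8.99% lower.

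**Figure D1:**
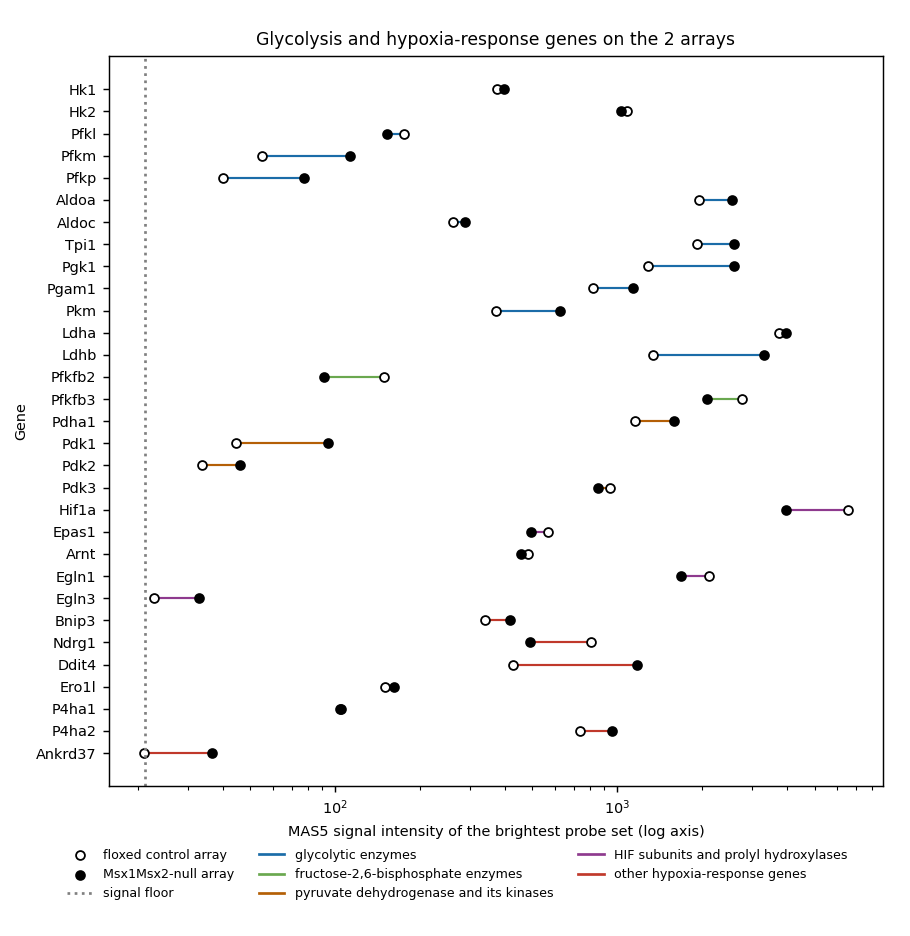
MAS5 signal intensity (log axis) of the brightest probe set of each of the 31 measured genes, open circles for the control array and filled circles for the null array; the dotted line is the floor of 21.1. The widest gaps are those of Ddit4 (426 to 1169) and Ldhb (1342 to 3313), and the circles of P4ha1, Ldha and Hk2 almost coincide.

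The first steps of glycolysis showed little difference at the hexokinases and a mixed picture at phosphofructokinase. Hk1, the hexokinase of most tissues, went from 374 to 396 (control first, as in all pairs of signals here). Hk2, the inducible hexokinase and a classic HIF target, read 1079 and 1028. The hexokinase differences were 0.08 and -0.07, and -0.21 and -0.36 with the spike-in scaling. Phosphofructokinase, which commits fructose-6-phosphate to glycolysis, has a liver, a muscle and a platelet subunit. The liver subunit Pfkl went from 176 to 152 (log2 -0.21), while both of its other probe sets stood at 0.15, on the opposite side of 0. The muscle subunit Pfkm went from 55.2 to 113 (log2 1.03) and the platelet subunit Pfkp from 40.0 to 77.8 (log2 0.96). These are dim signals, and both control values lie under a floor at the 67th percentile (72.7), against which only bounds of at least 0.63 for Pfkm and at least 0.10 for Pfkp remain. The further probe sets of Pfkp were below the floor on both arrays.

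The 8 measured members of the middle and lower pathway read higher on the null array as deposited, 6 of them by less than 2-fold; with the spike-in scaling Aldoc and Ldha turned to -0.16 and -0.21. Aldoa, the main aldolase of non-hepatic tissue, read 1944 and 2540 (log2 0.39), and its 5 probe sets, all of a kind that can cross-hybridise, ran from 0.03 to 0.59. The brain isoform Aldoc read 262 and 288 (log2 0.14). Triose phosphate isomerase, Tpi1, read 1910 and 2598, with its 3 probe sets between 0.31 and 0.45. Gapdh has no probe set of its own in the annotation, but the array's 3 quality-control probe sets for it read 1.33-fold to 1.44-fold higher in the null. Those for Actb, a cytoskeletal gene used in the same way, read 1.19-fold to 1.24-fold higher. With the spike-in scaling the log2 differences were 0.12 to 0.23 for Gapdh and -0.04 to 0.02 for Actb.

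Pgk1, phosphoglycerate kinase, which makes the first ATP of the pathway, read 1288 and 2587 at its brightest probe set. The others read 1258 and 2152, and 247 and 763, so that the differences were 1.01, 0.77 and 1.63: all 3 were higher in the null, but by different amounts. Pgam1, phosphoglycerate mutase, read 817 and 1140 (log2 0.48). Pkm, pyruvate kinase of non-hepatic tissue, read 373 and 627 (log2 0.75). The neuronal enolase Eno2 was listed at 0.61 and 8.20, both under the floor. The muscle enolase Eno3, no member and named after its value was seen, went down instead, from 59.2 to 44.4 (log2 -0.42). Over the 13 measured glycolytic enzymes the median difference was 0.44, with 11 above 0 and 3 at least 2-fold higher. With the spike-in scaling that median was 0.15, and it stood 0.35 above the median of all genes, as against 0.36 as deposited.

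The final step separated the subunits of lactate dehydrogenase. Ldha encodes the subunit that favours making lactate from pyruvate and is a HIF target; Ldhb encodes the subunit that favours the reverse reaction and is typical of oxidative tissue. Ldha read 3747 and 3964, a difference of 0.08, beside 0.08 for the median of all measured genes. That value rests on a single probe set, of a kind that can pick up other transcripts of the gene. Ldhb read 1342 and 3313, a difference of 1.30 (2.47-fold). Its other probe sets read 1285 and 3019, 908 and 2884, and 1312 and 2896. All 4 probe sets of Ldhb were thus at least 2-fold higher, from 1.14 to 1.67, though each is of a kind that can pick up other transcripts of the gene or related sequence. Ldhb remained past 2-fold in each of the 9 alternatives with a value that kept that threshold, with differences from 1.01 to 1.38, and Ldha lay between -0.21 and 0.15.

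The sequence upstream of the start site is shown for this pair and for Pgk1, because Ldha and Pgk1 are textbook HIF targets and Ldhb is not, while Ldhb and Pgk1 were higher and Ldha was not. Each line gives the 200 bases before the first start site that RefSeq lists (build GRCm38.p6), 5′ to 3′ on the strand of the gene, and capitals mark the core of the hypoxia response element, ACGTG or GCGTG on either strand. The stretches are chr7:46845604-46845803 on the plus strand for Ldha, chr6:142507958-142508157 on the minus strand for Ldhb and chrX:106186900-106187099 on the plus strand for Pgk1.
Ldha: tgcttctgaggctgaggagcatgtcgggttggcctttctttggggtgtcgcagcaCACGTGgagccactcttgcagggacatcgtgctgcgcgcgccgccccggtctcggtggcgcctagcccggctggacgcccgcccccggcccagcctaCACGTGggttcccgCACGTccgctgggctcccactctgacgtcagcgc
Ldhb: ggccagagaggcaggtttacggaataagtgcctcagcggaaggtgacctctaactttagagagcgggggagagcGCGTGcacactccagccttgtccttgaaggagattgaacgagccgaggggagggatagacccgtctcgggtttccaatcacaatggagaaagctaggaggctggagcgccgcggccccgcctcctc
Pgk1: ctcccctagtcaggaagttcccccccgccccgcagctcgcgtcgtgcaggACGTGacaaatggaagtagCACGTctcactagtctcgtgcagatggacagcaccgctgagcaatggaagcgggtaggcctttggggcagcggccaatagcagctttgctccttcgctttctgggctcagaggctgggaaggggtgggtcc
The Ldha stretch held 5 matches, of which 4 come from the palindrome CACGTG, also known as an E-box, read once on each strand at 2 places. The Pgk1 stretch held 2 matches, and the Ldhb stretch 1. A match is a run of letters and not evidence of binding, and Ldha has a second start site in the table.

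**Figure D2:**
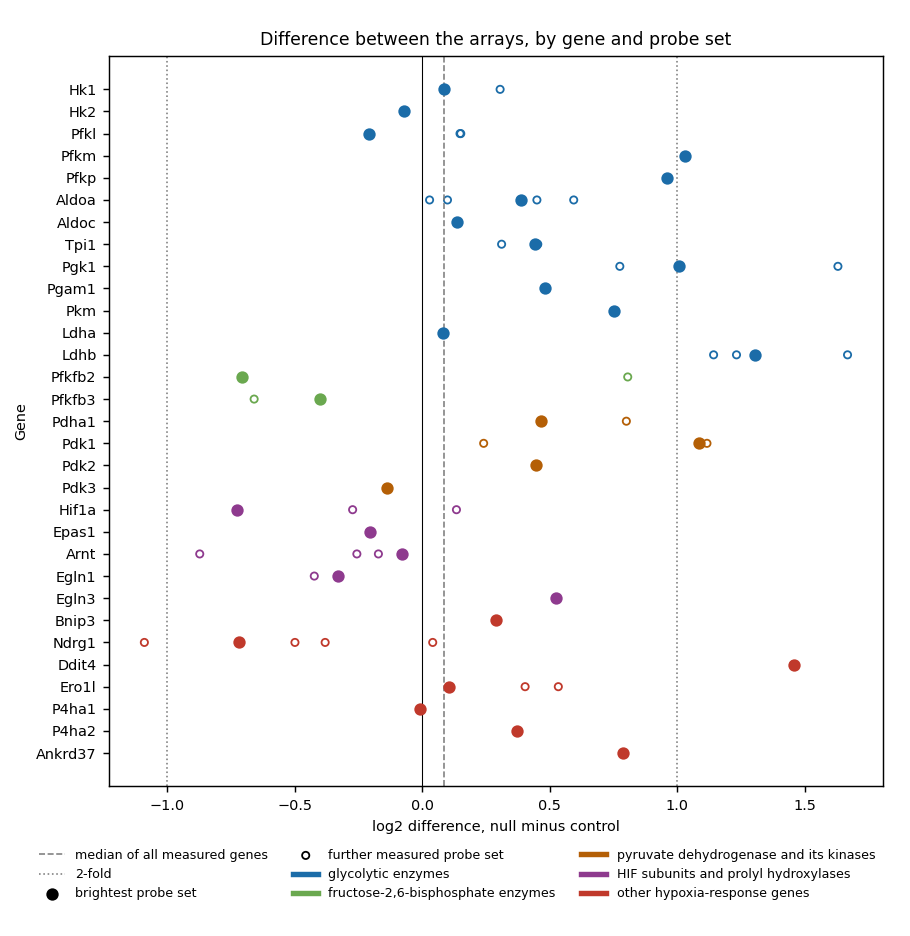
log2 difference (null minus control) of each measured gene, filled for the brightest probe set and open for further measured probe sets; the dashed line is the median of all measured genes (0.08) and the dotted lines are 2-fold. All probe sets of Ldhb and Pgk1 lie right of the dashed line, all of Egln1 and Arnt left of 0, and those of Hif1a, Ndrg1, Pfkl and Pfkfb2 lie on both sides of 0.

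Of the enzymes that set fructose-2,6-bisphosphate, the strongest activator of phosphofructokinase, Pfkfb3 read lower by both probe sets and Pfkfb2 had no single direction; neither passed 2-fold. Pfkfb3, the isoform in which kinase activity most outweighs phosphatase activity and a HIF target, read 2756 and 2086 (log2 -0.40) by its brighter probe set and 107 and 67.8 (log2 -0.66) at the other. Pfkfb2, the cardiac isoform, read 149 and 91.3 (log2 -0.71). A dimmer Pfkfb2 probe set pointed the other way, from 18.0, under the floor, to 36.9, which gives at least 1.75-fold higher. The median over both was 0.05. Their relative Pfkfb4, from the fixed list of other pathway genes, read 172 and 94.5 (log2 -0.86).

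For pyruvate dehydrogenase, the gate to the mitochondrion, Pdha1 read higher in the null, while its inhibitory kinases went both ways. The dim Pdk1 and Pdk2 read higher, and the much brighter Pdk3 read lower. Pdha1, the catalytic E1 alpha subunit, read 1153 and 1593 (log2 0.47), with its second probe set at 0.80. Pdk1, the kinase best known as a HIF target, read 44.6 and 94.5 (log2 1.08). Its other measured probe sets read 35.8 and 77.6 (log2 1.12), and 56.5 and 66.8 (log2 0.24). The median over these 3 was 1.08, and 0.66 when the probe set under the floor on both arrays was counted as no difference. Pdk2 read 33.8 and 46.0 (log2 0.44). Pdk3 read 938 and 853 (log2 -0.14), and Pdk4 was listed at 4.08 and 7.58, under the floor. The median over the 4 measured genes was 0.46. Pdk1 is dim: against the floor at the 67th percentile, which its control signal does not reach, the bound is at least 0.38.

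The oxygen-sensing genes themselves were slightly lower, with a median of -0.21 over 5 genes, 4 of them below 0 and none past 2-fold. Hif1a, the alpha subunit regulated by oxygen, went from 6543 to 3955 (log2 -0.73) by its brightest probe set. Another read 1286 and 1412 (log2 0.13) and a dimmer one 361 and 299 (log2 -0.27). The probe sets of Hif1a thus disagreed in sign; the median over these 3 was -0.27, or -0.14 when the probe set under the floor on both arrays was counted as no difference, and the value was 0.13 when probe sets marked as shared or alternative were left out. Epas1, which encodes HIF-2 alpha, read 569 and 493 (log2 -0.21). Arnt, the constitutive partner, read 481 and 455 (log2 -0.08), with its further measured probe sets at -0.17, -0.26 (a bound, the null signal being under the floor) and -0.87.

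Egln1, the main prolyl hydroxylase of HIF, read 2116 and 1684 (log2 -0.33), and its second probe set 869 and 648 (log2 -0.42). Both probe sets of Egln1 were lower in the null. Egln3, a hydroxylase strongly induced by hypoxia in many cells, read 22.8 and 32.8 (log2 0.52), just above the floor on the control array, and its other probe set was below the floor. Mesothelial markers were the only marker list with every measured gene lower in the null. All 4 were measured, none past 2-fold, with a median of -0.60 and summed signals of 1078 and 761. The part of mesothelial cells was not tested.

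Hypoxia-response genes outside carbon metabolism did not move as 1 group. Ddit4, which encodes an inhibitor of mTORC1 induced by hypoxia, glucocorticoids and other stresses, had the largest difference of all members. Its single probe set gave 426 for the control and 1169 for the null (log2 1.46, 2.74-fold), and it was past 2-fold in each of the 10 alternatives that kept that threshold, from 1.16 to 1.53. Ndrg1, a stress-response gene named for its repression by N-myc, was lower instead. Its brightest probe set read 804 and 488 (log2 -0.72), and the others read 590 and 454, 268 and 189, 158 and 74.3, and 81.9 and 84.3. Of these 5 probe sets 4 were lower in the null, 1 of them at least 2-fold, and the range was -1.09 to 0.04.

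The other members of this group stayed within 2-fold, or had a bound under it. Bnip3, a mitochondrial protein of mitophagy, read 339 and 415 (log2 0.29). Bnip3l, its relative, shares its 3 probe sets with a pseudogene, and none is named here. Ero1l, the oxidase that drives disulfide formation in the endoplasmic reticulum, read 151 and 162 (log2 0.11), with its other probe sets at 0.40 and 0.53. The collagen prolyl hydroxylase subunit P4ha1 read 104 on both arrays (log2 -0.01). P4ha2, its counterpart, read 738 and 956 (log2 0.37). Ankrd37, a small ankyrin-repeat protein and HIF target, read 21.1, just under the floor, and 36.5, which gives at least 1.73-fold higher. The median over the 7 measured genes was 0.29, and it was -0.003 with the spike-in scaling, 0.20 above the median of all genes.

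The 200 bases before the start site of Ddit4 (chr10:59951771-59951970, minus strand, GRCm38.p6) are printed because Ddit4 had the largest difference and is a known hypoxia target, with the same core in capitals.
Ddit4: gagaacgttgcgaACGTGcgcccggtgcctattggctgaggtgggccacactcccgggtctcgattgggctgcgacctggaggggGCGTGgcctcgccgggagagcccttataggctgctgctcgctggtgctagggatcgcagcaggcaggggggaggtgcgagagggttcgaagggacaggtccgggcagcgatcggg
This stretch held 2 matches, 1 of ACGTG and 1 of GCGTG.

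**Figure D3:**
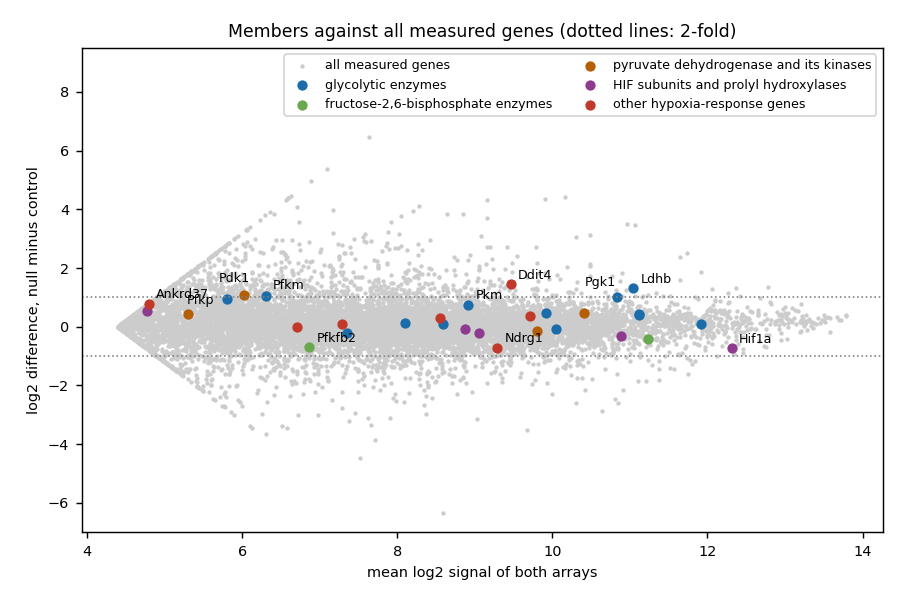
log2 difference (null minus control) against the mean log2 signal for all 11662 measured genes (grey) and the 31 members (coloured by role); the dotted lines are 2-fold. Ddit4 and Ldhb stand above the 2-fold line at bright signals, whereas Pfkm and Pdk1 cross it at dim signals, where the grey cloud is widest.

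The core of the response element was common near these genes. RefSeq promoter windows were matched for 33 of the 36 members, and in the 250 bases before the first listed start site 27 (81.8%) held at least 1 ACGTG or GCGTG on either strand. Over the first windows of all 27025 genes in the table the share was 38.6%. The members' windows were also richer in CpG, which the core contains: a median of 16 per window against 6, and among the 6911 genes with at least 16 the share was 69.0%. For ACGTG alone the shares were 54.5% of members, 16.6% of all genes and 25.5% of the CpG-rich genes. Members with many matches and members with few were found both above and below 0. The 5 genes at least 2-fold higher had 1 match (Ldhb, Pdk1) or 2 matches (Pgk1, Pfkm, Ddit4). Some members within 2-fold had as few, among them Pfkl with 1 and Hk2 and Egln1 with 2. Others had more, among them Ldha with 5, Bnip3 with 5, Pfkfb2 with 4 and Hif1a with 3. A palindrome counts as 2 matches, as in Pfkm, Ldha, Bnip3, Pfkfb2 and Hif1a. The measured members with none in that window, Hk1, Aldoa, Tpi1 and Pkm, read higher in the null (log2 0.08, 0.39, 0.44 and 0.75). With the spike-in scaling Hk1 stood at -0.21. At further listed start sites, however, Pkm and Aldoa had an ACGTG match on 1 strand and Hk1 had 3 GCGTG matches. These are descriptions of the letters, and no difference between shares was tested.

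**Figure D4:**
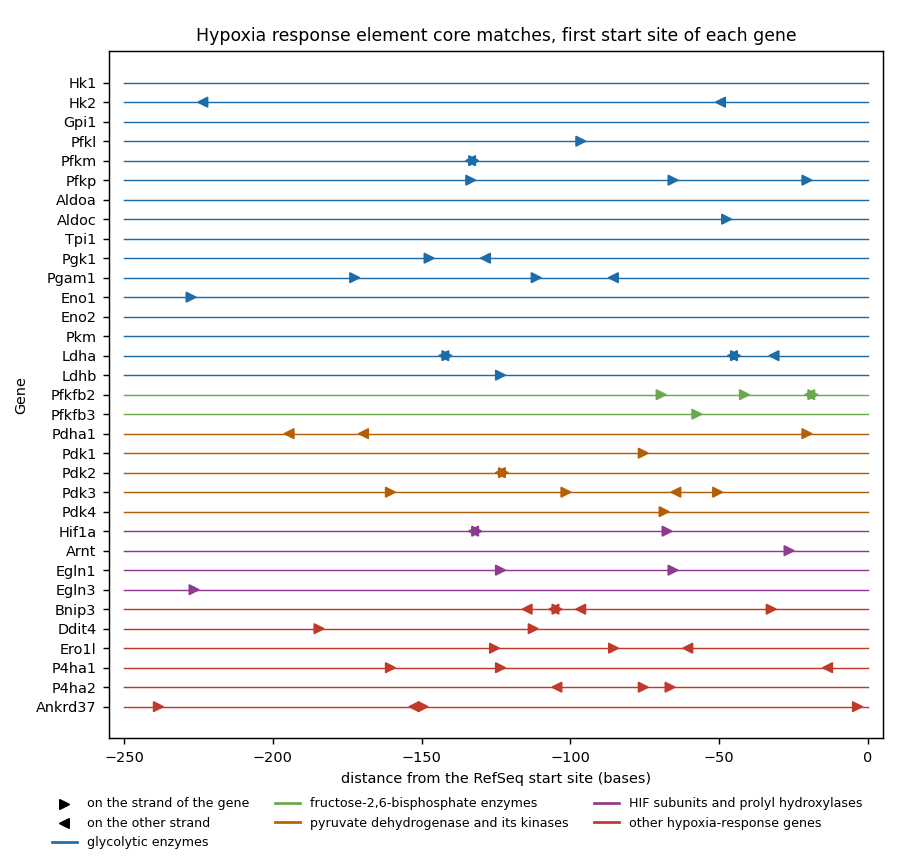
Positions of the hypoxia response element core in the 250 bases before the first RefSeq start site of 33 members, in bases from that start; right-pointing marks are on the strand of the gene and left-pointing marks on the other, and overlapping marks form a palindrome. Of the 33 lines 27 carry a mark, and Hk1, Gpi1, Aldoa, Tpi1, Eno2 and Pkm carry none. Hk1, Aldoa and Pkm have matches at further start sites, which are not drawn.

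Other genes of the pathway, came from lists by role, also made with earlier results known. Of 75 listed, 60 were measured, 10 were at least 2-fold higher (16.7%) and 2 at least 2-fold lower (3.33%), beside 7.73% and 4.75% over all genes, and the median was 0.28. With the spike-in scaling 6 were higher and 5 lower, beside 4.89% and 8.99% over all genes. Among 19 measured genes of glucose and glycogen metabolism 3 were at least 2-fold higher and none as much lower, with 12 above 0 and 7 below. Pgm2, a member of the phosphoglucomutase family, read 270 and 1186 (4.39-fold). Gbe1, the glycogen branching enzyme, read 99.0 and 283 (2.86-fold). Bpgm, which makes 2,3-bisphosphoglycerate, read 148 and 286 (log2 0.95). The remaining higher gene, named after its value was seen, was Gpd1, a glycerol-3-phosphate dehydrogenase, which was under the floor in the control at 12.9 and read 59.2 in the null, at least 2.80-fold higher. Of those below 0, Pfkfb4 is given above, and Pgm1, of the same family as Pgm2 and likewise named after its value was seen, read 370 and 220 (log2 -0.75), with its second probe set at -0.45.

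In the pyruvate dehydrogenase complex and the carriers, 1 of 11 measured genes passed 2-fold, upwards, where 7.73% of all genes did. All 7 measured genes of the complex, its phosphatases and the pyruvate carrier lay above 0, from 0.02 for Dld to 1.05 for Pdp1, where 57.0% of all genes did. The spike-in scaling, which takes 0.29 from each difference, put Dld, Dlat and Pdp2 below 0 and left the others above. It also moved the median of all genes to -0.20. The probe sets of Dlat, named like Dld and Pdp2 after the values were seen, ran from -0.13 to 0.15. Pdp1, the phosphatase that reactivates the enzyme, was at least 2-fold higher, at 31.1 and 64.5. Both signals are dim, under a floor at the 67th percentile (72.7), and the spike-in scaling put Pdp1 under 2-fold. Pdhx read 78.9 and 112 (log2 0.50), Mpc1, a subunit of the mitochondrial pyruvate carrier, 640 and 838 (log2 0.39), and Pdhb 1989 and 2524 (log2 0.34). None of 4 measured carriers reached 2-fold. Slc2a1, the basal glucose transporter GLUT1 and a HIF target, read 594 and 1020 (log2 0.78), with its 3 probe sets from 0.59 to 0.91. Bsg, the chaperone of lactate carriers, read 905 and 1283 (log2 0.50). Slc16a1, a lactate carrier, stood at 0.22 and Slc2a3 at 0.19, and both fell below 0 with the spike-in scaling.

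In the wider HIF pathway 3 of 7 measured genes were at least 2-fold higher and none lower, beside 7.73% and 4.75% over all genes. Cited2, which competes with HIF for the coactivator p300, read 164 and 497 (3.02-fold), with its second probe set at 1.44. Arnt2, a relative of Arnt, read 202 and 510 (2.53-fold). Hif3a, whose splice forms include inhibitors of HIF, read 49.9 and 114 (2.28-fold), but its 3 probe sets ran from -0.37 to 1.19. The spike-in scaling, which takes 0.29 from each difference, put Hif3a under 2-fold. Ep300, the p300 gene, read 1242 and 829 (log2 -0.58).

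Among 23 further hypoxia-response genes measured, 3 were at least 2-fold higher (13.0%) and 2 lower (8.70%), so that this list also went both ways. Over all genes the shares were 7.73% and 4.75%. Tfrc, the transferrin receptor, read 192 and 420 (2.19-fold), and Bhlhe40, a transcriptional repressor, 521 and 1052 (2.02-fold). The spike-in scaling put both under 2-fold. Hilpda, a lipid droplet protein induced by HIF, read 609 and 239 (2.55-fold lower). Car12, a membrane carbonic anhydrase, read 368 and 140 (2.62-fold lower), although its second probe set stood at -0.13. The last was Stc2, under the floor in the control and named after its value was seen, at least 2.48-fold higher. Its 3 measured probe sets ran from 0.50 to 1.31. The null array also had the higher smooth muscle and stroma markers (medians 1.38 and 0.59), whose part in these differences was not tested.

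**Figure D5:**
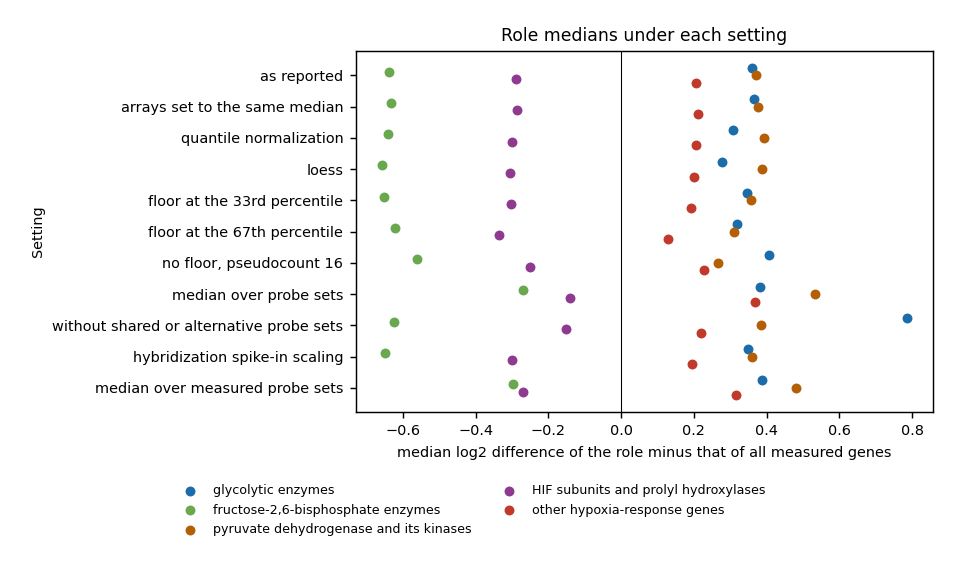
Median log2 difference of each role minus the median of all measured genes, as reported and under 10 alternatives of scaling, floor and probe set choice. Glycolytic enzymes, pyruvate dehydrogenase with its kinases and the other hypoxia-response genes stay right of 0 in these 11 settings, and the HIF subunits with their hydroxylases and the fructose-2,6-bisphosphate enzymes stay left; the last role holds only 2 genes, of which Pfkfb2 has no single direction.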

How the data were processed

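Per the labels' protocols, biotin-labelled RNA made with a 3' amplification kit was hybridized to Affymetrix arrays. The authors deposited linear intensity values. The submitters' processing notes name MAS5 and version 1 of Affymetrix Expression Console. That method corrects for background with mismatch probes and brings every array to a common overall level, so a difference in total RNA per cell would not show, and ratios of dim probe sets are noisy. No build is given for the probe sets in the sources used here.

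Gene names came from the platform's annotation table, and only those with 1 gene (34945 of 45037 non-control) were used; Ero1l was matched through its RefSeq synonym. Of 171 gene names in the lists of members, other pathway genes and cell type markers, 157 had such a probe set. Every member is named, with up to 4 genes per other pathway list, those that differed most while above the floor on both. The members and lists were chosen with earlier results of these data known. Calculations used Python 3.11.15, numpy 2.4.6, pandas 2.3.3 and, for loess, statsmodels 0.14.6. The arithmetic of the comparison was checked on a copy of the control array with differences planted in some genes. That copy holds no noise between arrays, so the check says nothing about error in the real differences. Promoter sequences are from RefSeq, GRCm38.p6.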

Additional observations from a re-analysis of the deposited data

How the results depend on the processing

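No paired analysis was possible because each genotype had 1 array. As deposited, 5 members passed 2-fold upwards in the null and 0 downwards, as did 10 and 2 of the other pathway genes. Members higher numbered 3 with the floor at the 67th percentile (5.48% of all genes), 2 with no floor and a pseudocount of 16 (4.32%), and 2 with the arrays set to spike-in controls (4.89%). That last scaling was chosen after the data were seen, and with it 2 members were lower (8.99% of all genes). At 1.5-fold 8 were higher and 3 lower (17.5% and 12.05% of all genes), and at 3-fold 0 were higher (2.97%). Other pathway genes higher, with the share over all genes in brackets, numbered 6 of 48 with the 67th percentile floor (5.48%) and 6 of 68 with the pseudocount (4.32%). Of 60, they numbered 4 with the median over all probe sets (5.35%), 6 with spike-in scaling (4.89%), 16 at 1.5-fold (17.5%) and 2 at 3-fold (2.97%). Those lower numbered 1 with the median over all probe sets (3.66%), 1 with the median over measured ones (4.42%), and 5 with spike-in scaling (8.99%). They numbered 1 of 50 when probe sets marked as shared or alternative were left out (5.61%), 7 at 1.5-fold (12.05%) and 0 at 3-fold (1.51%). The median of the glycolytic enzymes was 0.86, in place of 0.44, when those marked probe sets were left out, which left 6 of 13 genes. The median over all probe sets counts those under the floor on both arrays as 0. Over measured ones only, chosen after the data were seen, 7 other pathway genes were higher (6.89% of all genes). Against the higher floor, Pfkm and Pdk1 have only a bound, so their loss shows no smaller difference. Apart from these, the change of threshold and the genes left, the cause was not tested. Pgk1 stayed past 2-fold in 6 of 10 alternatives, Pfkm in 7 and Pdk1 in 6. No member past 2-fold changed sign in any alternative run. Dim genes near the floor, among them Pfkm, Pfkp, Pdk1, Egln3 and Ankrd37, are limited by their signal over background.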
